A study of Bubalus bubalis with 36 samples.

Results

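Omental fat (OAT), from the fold of peritoneum that hangs from the stomach, was compared with pericardial fat (PCAT), from around the heart sac, for their microRNAs (miRNAs) in the same 6 water buffaloes (Bubalus bubalis). The 12 libraries were taken by the depot in their labels, 6 omental and 6 pericardial, out of 36 libraries in the series, and were paired by animal number. The series holds 6 depots of each animal, and the remaining depots are back, sternal and inguinal subcutaneous fat and perirenal fat. All animals were weaned at 3 months, put on fattening at 15 months and slaughtered at 20 months of age. The labels name no genotype, breed, sex or treatment, and the groups differ by depot. Each library is bulk tissue from 1 depot of 1 animal, and a miRNA with fewer producing cells cannot be told apart from one with less RNA per cell.

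miRNAs are short RNAs that lower the translation and stability of messenger RNAs carrying matching sites. Some are encoded inside the HOX clusters, the gene clusters that set position along the body axis: miR-10a, miR-10b, the miR-196 pair and miR-615 lie there, and their levels in adult tissue often follow the position of the tissue in the body. Others sit in large polycistrons, such as the imprinted DLK1-DIO3 cluster, expressed from the maternal chromosome, and the X-linked cluster of miR-424, miR-503, miR-542 and miR-450. Depots of fat arise from different embryonic regions, and omental and pericardial fat are both classed as visceral in the series.

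Library totals were 11208835 to 12980026 counted reads in omental and 11767206 to 13377988 in pericardial libraries, and 874 to 1052 features were detected per library. The table named 1682 features. Bovine miRNAs made up 695 of them, and the remaining 987 are candidate loci known by an identifier alone. Of all features 113 had no read in any of the 12 libraries, and 551 passed the filter on low counts (346 miRNA names and 205 candidates). Levels are given as CPM, counts scaled to a common library total with sizes adjusted by the trimmed mean of M values (TMM). The 10 most abundant features took 48.5% to 56.8% of a library. Library names end in A or B, letters that the labels leave unexplained: 2 omental (animals 4 and 6) and 2 pericardial libraries (animals 2 and 5) have the letter A. The list of miRNAs reported to promote fat cell formation summed to 71669 to 123572 CPM in omental and 73647 to 95779 CPM in pericardial libraries. No tissue other than fat was there to set beside these sums, so they are not a check of the tissue.

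The depots differed most clearly in miR-10a, a HOX-cluster miRNA, and in 1 candidate locus that went with it, both higher in omental fat. miR-10a, encoded in the HOXB cluster, was at 315 to 1566 CPM in omental libraries with a median of 1034 CPM, against 70.7 to 202 CPM in pericardial libraries with a median of 147 CPM. Every omental library was above every pericardial library, and miR-10a was higher in omental fat in 6 of 6 animals. Its log2 fold change was 2.57 ± 0.35 (SE), 5.92-fold on the linear scale, with an adjusted p of 0.00612 (edgeR's quasi-likelihood test, Benjamini-Hochberg). The candidate locus NC_059159.1_8293, which the table pairs with no miRNA name, was at 1529 to 5005 CPM in omental libraries (median 3994 CPM) and 305 to 877 CPM in pericardial libraries (median 755 CPM). The libraries of the depots did not overlap in this locus either, and its log2 fold change was 2.40 ± 0.34 with an adjusted p of 0.00612 in the same test. In all, 3 features had every omental library above every pericardial one (0.544% of those tested) and 7 had every omental library below (1.27%).

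These were the 2 of 551 features that passed an adjusted p of 0.05, both higher in omental fat (0.363% of those tested), and 0 were lower. At an unadjusted p under 0.05 edgeR gave 64 features (11.6%), 22 of them higher (3.99%) and 42 lower (7.62%) in omental fat. DESeq2 on the same 12 libraries called 36 features, 17 higher and 19 lower, and limma on log2(RPM + 1) called 7. Differences given below with an unadjusted p did not pass the adjustment in edgeR's fit of the 12 libraries. miR-10a and the locus passed in 25 of 26 fits, with log2 fold changes of 2.42 to 3.17 for miR-10a. The fit in which they were not called used the 4 omental and 4 pericardial libraries with the letter B, where the values were 3.17 for miR-10a and 2.87 for the locus, with an adjusted p of 0.0681 for both. That fit was not paired by animal, and only buffaloes 1 and 3 had the letter B in both depots.

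**Figure D1:**
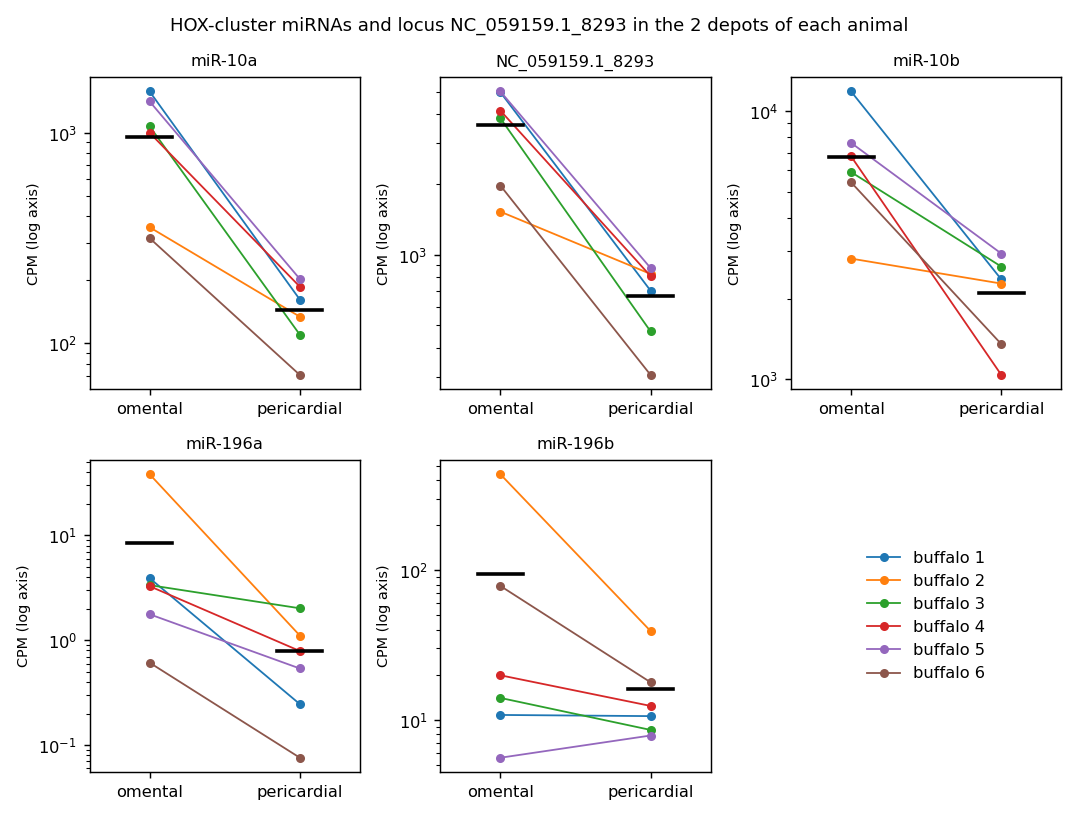
Level in CPM (log axis) of the 4 tested HOX-cluster miRNAs and the locus NC_059159.1_8293 in omental (left) and pericardial fat (right) of each animal; coloured lines join the libraries of 1 animal and black bars are depot means. miR-10a averaged 951 CPM in omental fat and 144 CPM in pericardial fat, and all 6 lines fall toward pericardial fat for miR-10a, the locus, miR-10b and miR-196a, while the line of buffalo 5 rises for miR-196b.

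The locus broadly followed miR-10a across libraries, though the ratio of the 2 varied. It had 3.17 to 6.28 counts per count of miR-10a in omental libraries, 4.28 to 6.19 in pericardial libraries and 2.40 to 5.98 in the 24 libraries of the remaining depots. The ratios of the depots overlapped, while the levels did not. Buffalo 2 had the smallest difference between its depots in both, at 1.41 on the log2 scale for miR-10a and 0.89 for the locus, and buffalo 3 the largest, at 3.28 and 3.03.

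miR-10b, the HOXD member of the same seed family, was more abundant. It was at 2818 to 11814 CPM in omental libraries (mean 6723 ± 2976 CPM, SD, n = 6), against 1038 to 2942 CPM in pericardial libraries (mean 2099 ± 744 CPM). The depots overlapped because omental fat of buffalo 2 (2818 CPM) lay below pericardial fat of buffalo 5 (2942 CPM), and within each of the 6 animals omental fat was higher. Its log2 fold change was 1.65 ± 0.35 with an adjusted p of 0.0611, not called. DESeq2 and limma on log2(RPM + 1) called miR-10b in the same 12 libraries, and 16 of 26 fits called it in all. In the fit of all 36 libraries, which estimates the spread over all depots, the value was 1.63 ± 0.26 and the adjusted p was 1.57e-04. miR-10a and miR-10b are close in sequence, as are miR-196a and miR-196b, so reads could be divided between the members of each pair by counting.

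The miR-196 pair was scarce in both depots and varied between animals. miR-196a was at 0.611 to 38.4 CPM in omental and 0.0757 to 2.02 CPM in pericardial libraries. It was higher in omental fat of every animal, and the highest value by far was omental fat of buffalo 2. The log2 fold change of miR-196a was 2.66 ± 0.67 with an adjusted p of 0.122, not called. DESeq2 on the same libraries called miR-196a, while limma on log2(RPM + 1) did not. miR-196b was at 5.56 to 440 CPM in omental and 7.84 to 39.2 CPM in pericardial libraries, again with buffalo 2 at the top in both depots. Its log2 fold change was 1.05 ± 0.54 with an adjusted p of 0.485. miR-615, from the HOXC cluster, was found in all 6 omental libraries at 0.175 to 1.86 CPM, while 5 of 6 pericardial libraries had no read and that of buffalo 2 had 0.317 CPM. It was too rare for the test of the 12 libraries. All 4 tested HOX-cluster members thus had higher values in omental fat, beside 245 of all 551 features. At an unadjusted p under 0.05 in edgeR were 3 of them, beside 3.99% of all features. Their median log2 fold change was 2.11, against -0.08 over all 551 features.

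**Figure D2:**
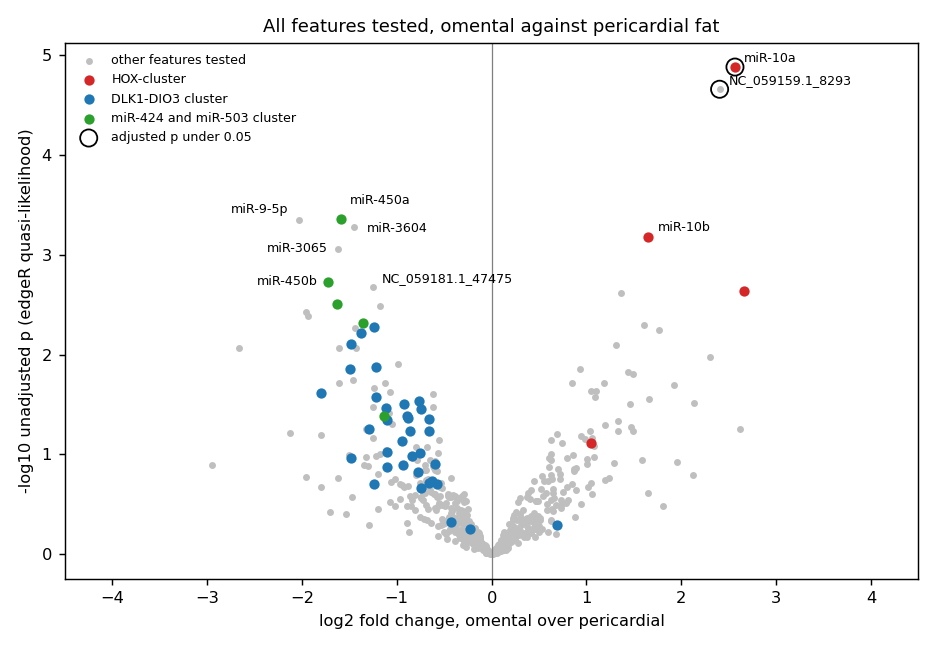
Log2 fold change of omental over pericardial fat (x axis) and -log10 of the unadjusted edgeR p (y axis) for the 551 features tested, with HOX-cluster (red), DLK1-DIO3 (blue) and miR-424 and miR-503 cluster members (green). The 2 circled features, miR-10a and NC_059159.1_8293, passed an adjusted p of 0.05, and the blue and green points lie to the left of 0 with the exception of miR-668-3p.

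Setting each depot against the mean of the other 4 depots of the same animals (back, sternal, inguinal and perirenal fat) showed which of the 2 stood apart. Both contrasts share those 24 libraries, so their values are given side by side. For miR-10a the log2 difference was -0.00 ± 0.24 in omental fat, not called, and -2.69 ± 0.30 in pericardial fat (adjusted p = 6.80e-08). The locus NC_059159.1_8293 showed -0.00, not called, in omental and -2.45 ± 0.27 in pericardial fat. On library sizes scaled over all 36 libraries, miR-10a averaged 886 ± 494 CPM in omental fat and 132 ± 43.1 CPM in pericardial fat, beside 620 ± 170 CPM in back, 1492 ± 676 CPM in sternal, 610 ± 174 CPM in inguinal and 882 ± 369 CPM in perirenal fat (SD, n = 6 each). miR-615 was at -0.16 in omental, not called, and -3.59 in pericardial fat. A fitted change of so rare a miRNA depends on the prior count.

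For miR-10b and the miR-196 pair both depots were below the others, pericardial fat further. miR-10b differed by -1.20 ± 0.22 in omental and -2.83 ± 0.25 in pericardial fat. miR-196a differed by -4.57 ± 0.69 in omental and -7.50 ± 0.79 in pericardial fat, and miR-196b by -5.69 ± 0.68 and -7.42 ± 0.73. miR-196a averaged 7.82 ± 13.3 CPM in omental fat and 0.728 ± 0.644 CPM in pericardial fat, while the other 4 depots averaged 18 to 360 CPM. All 3 passed in both depots, also with any 1 animal left out. The 4 depots are not alike in their HOX-cluster miRNAs, since sternal fat had 18 CPM of miR-196a and inguinal fat 360 CPM, so the contrast is with their mean.

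**Figure D3:**
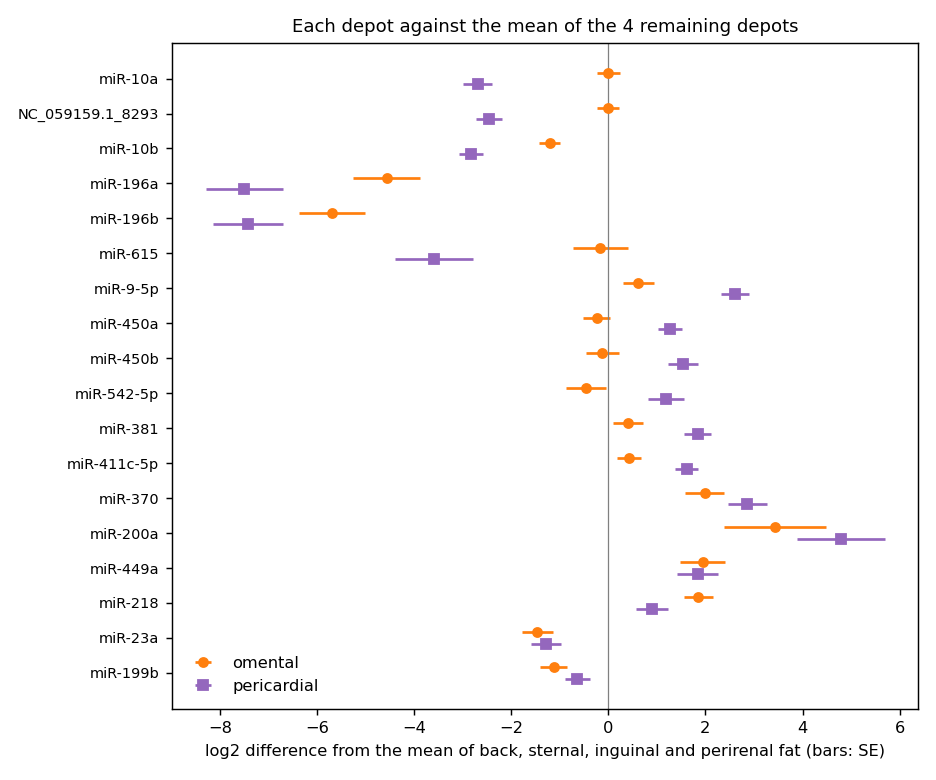
Log2 difference of omental fat (orange circles) and pericardial fat (purple squares) from the mean of back, sternal, inguinal and perirenal fat, with SE bars, for 18 miRNAs and loci. miR-10a, the locus and miR-615 are near 0 in omental and below 0 in pericardial fat, while miR-9-5p, miR-450a and miR-381 are above 0 in pericardial fat.

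In total 11 of 667 features differed between omental fat and the 4 depots (1.65%), 4 higher (0.6%) and 7 lower (1.05%), whereas 86 differed for pericardial fat (12.9%), 60 higher (9%) and 26 lower (3.9%). Without the animal as a block 19 differed for omental fat. Scaling moved these splits. In omental fat it was 17 higher and 6 lower with library totals alone. In pericardial fat it was 82 higher and 16 lower with library totals and 50 higher and 36 lower with the size factors of DESeq2 (RLE). The median of all features moved by the same choices, to 0.26 (totals) from 0.09 in omental fat, and to 0.21 (totals) and -0.09 (RLE) from 0.03 in pericardial fat. Differences near 0 are relative to those shifts. Leaving out 1 animal gave 5 to 15 features in omental fat, with 7 without buffalo 2 and 5 without buffalo 4, and 60 to 90 in pericardial fat.

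The miRNAs with the smallest p among those lower in omental fat were miR-450a, miR-9-5p, miR-3604, miR-3065 and miR-450b. None was called by edgeR among the 12 libraries, and each was lower in omental fat in 6 of 6 animals. DESeq2 on the same libraries called all 5, and limma on log2(RPM + 1) called miR-450a, miR-9-5p and miR-3604. miR-9-5p, best known for its role in neural development, was at 4.32 to 23.7 CPM in omental libraries (median 11.2 CPM), against 22.3 to 71.6 CPM in pericardial libraries (median 52.4 CPM). The depots overlapped only between omental fat of buffalo 4 and pericardial fat of buffaloes 3 and 6. Its log2 fold change was -2.03 ± 0.41 with an adjusted p of 0.0581, and in the fit of all 36 libraries it was -1.98 ± 0.42 with an adjusted p of 0.00947. That call was lost without buffalo 1 or without buffalo 5. Against the other 4 depots miR-9-5p was higher in pericardial fat by 2.60 ± 0.29, while omental fat was at 0.62 and not called. The other miRNAs of the neural list went both ways. miR-137 had a value of -1.80 ± 0.87 (unadjusted p = 0.0640) and miR-124a of -1.80 ± 1.34 (unadjusted p = 0.210), while miR-218 had 1.05 ± 0.40 (unadjusted p = 0.0232) and miR-128 had 0.05 ± 0.31. Of the 9 tested members 6 had higher values in omental fat, beside 245 of all 551 features, and the median of the 9 was 0.13.

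miR-3065 and miR-338 had values in the same direction. In human they come from opposite strands of one locus, where their hairpins overlap, so reads of the pair depend on how strand was counted. miR-3065 was at 4.80 to 72.9 CPM in omental and 29.4 to 160 CPM in pericardial libraries, and its log2 fold change was -1.61 ± 0.36 (adjusted p = 0.0687). miR-338 was scarcer, at 0.169 to 2.96 CPM in omental and 2.23 to 9.58 CPM in pericardial libraries, with -1.94 ± 0.54 (adjusted p = 0.153). miR-3604, a bovine miRNA, was abundant, at 852 to 7203 CPM in omental and 3244 to 17050 CPM in pericardial libraries (-1.45 ± 0.30, adjusted p = 0.0581). In edgeR's fit of all 36 libraries miR-3604 was at -1.37 ± 0.51 and not called (adjusted p = 0.146). Against the other 4 depots it was at -0.91 in omental and 0.46 in pericardial fat, not called in either.

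The cluster of miR-424, miR-503, miR-542 and miR-450, of which miR-424 and miR-503 slow the cell cycle in several cell types, had lower values in omental fat for all 5 of its tested members, each at an unadjusted p under 0.05, against 7.62% of all features. Their median log2 fold change was -1.59. They belong to 1 polycistron, and miR-424-3p and miR-424-5p are arms of 1 precursor, so they are not independent of each other. miR-450a was at 45.7 to 257 CPM in omental libraries (median 116 CPM) and 220 to 456 CPM in pericardial libraries (median 349 CPM), where 1 omental library, that of buffalo 1, exceeded the lowest pericardial library. Its log2 fold change was -1.59 ± 0.32 (adjusted p = 0.0581). miR-450b was at 4.13 to 25 CPM in omental and 35.6 to 61.8 CPM in pericardial libraries, with no overlap and a value of -1.72 ± 0.42 (adjusted p = 0.122). miR-542-5p was at 7.07 to 21.5 CPM in omental and 22.5 to 72.1 CPM in pericardial libraries, also with no overlap (-1.63 ± 0.43, adjusted p = 0.138). miR-424-3p (-1.36) and miR-424-5p (-1.14) completed the group, and both arms of miR-503 were too rare to test. Besides miR-450a and miR-450b, DESeq2 on the same libraries called miR-542-5p and miR-424-3p. The summed level of the cluster was 71.5 to 328 CPM in omental and 321 to 594 CPM in pericardial libraries.

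Of these miRNAs, miR-450a and miR-450b passed in the fit of all 36 libraries, at -1.51 and -1.67 with adjusted p-values of 0.0215 and 0.0353. miR-450a lost its call without buffalo 1, 5 or 6, and miR-450b kept it only without buffalo 4. Against the other 4 depots 5 of 6 tested members were higher in pericardial fat, where 9% of all features were higher, and 0 were called in omental fat. Here too the members are not independent of each other. miR-450a differed by -0.24 in omental and 1.27 ± 0.25 in pericardial fat, and miR-450b by -0.13 and 1.54 ± 0.31.

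Members of the imprinted DLK1-DIO3 cluster, known for its activity in embryonic tissue, had higher values in pericardial fat almost throughout. Of its 55 named features 35 were tested, and 34 had lower values in omental fat, 15 of them at an unadjusted p under 0.05, against 7.62% of all features. None was called in edgeR with the 12 libraries, and the 1 with a higher value was miR-668-3p (0.69 ± 1.01), which lay at or below 2.54 CPM in every library. DESeq2 on the same libraries called miR-381, miR-369-3p and miR-411c-5p, all lower in omental fat. The median of the 35 was -0.89, beside -0.08 over all features. They come from shared transcripts and are not independent of each other.

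miR-381 was at 9.25 to 42.9 CPM in omental libraries (median 19.7 CPM) and 43.2 to 72.0 CPM in pericardial libraries (median 54.1 CPM), with no overlap. Its log2 fold change was -1.38 ± 0.41 (adjusted p = 0.16). miR-411c-5p was the other member with no overlap, at 18.4 to 87.9 CPM in omental and 89.6 to 218 CPM in pericardial libraries (-1.24 ± 0.36, adjusted p = 0.156). miR-369-3p (-1.48), miR-380-3p (-1.22) and miR-411b (-1.50) were lower in 6 of 6 animals. The most abundant member, miR-127, was at 11106 to 54105 CPM in omental and 28402 to 56976 CPM in pericardial libraries, and the depots overlapped widely (-0.66 ± 0.29, unadjusted p = 0.0447). In buffalo 3 its omental level was the higher one, 54105 against 47518 CPM. miR-485 (-0.23) and miR-299 (-0.43) showed the smallest differences among the members with lower values.

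In the fit of all 36 libraries 5 of 39 tested members were lower in omental fat: miR-381, miR-411c-5p, miR-411b, miR-380-3p and miR-369-3p, with adjusted p-values of 0.0353 to 0.0476. All features lower in that fit made up 2.1% of those tested. Each of the 5 lost its call in at least 5 of the 6 fits without 1 animal. Against the other 4 depots 24 of 39 members were higher in pericardial fat, beside 9% of all features, and 1 in omental fat, miR-370. miR-370 was above the 4 depots in both, by 1.99 in omental and 2.86 ± 0.40 in pericardial fat, and miR-381 by 0.41 (not called) and 1.84 ± 0.28. The rise of miR-370 in omental fat was not called without buffalo 6 (1.78, adjusted p = 0.0610). miR-493 was at 0.81 (not called) in omental and 1.55 ± 0.24 in pericardial fat.

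**Figure D4:**
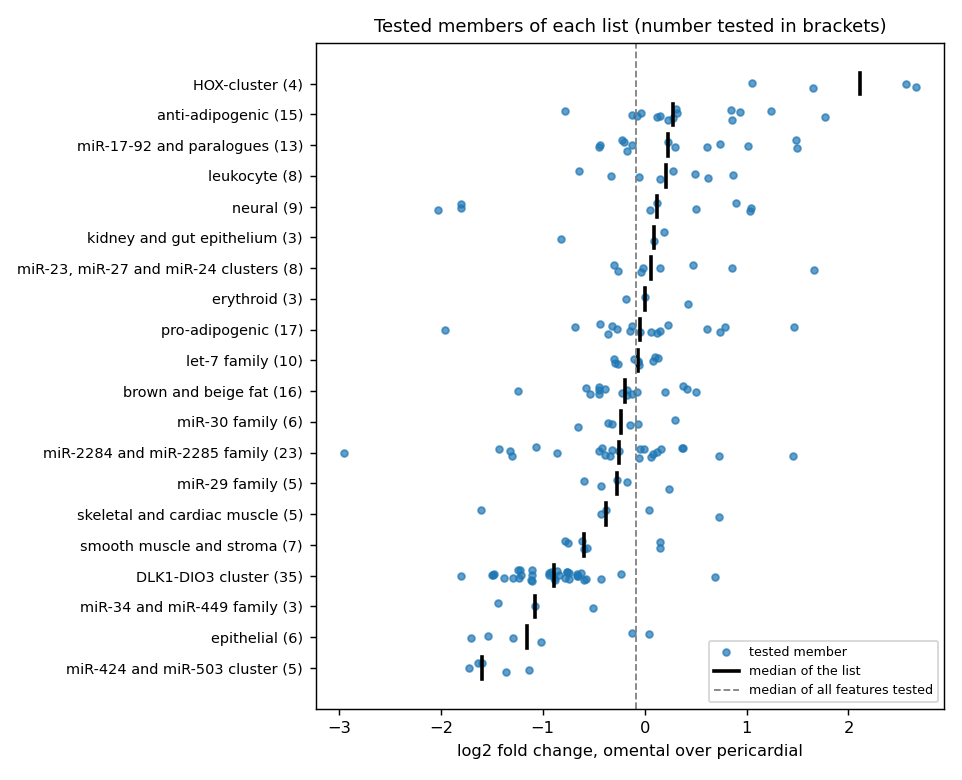
Log2 fold change of omental over pericardial fat for each tested member (points) of 20 lists with at least 3 tested members, sorted by list median (black bar); the dashed line is the median of all features, -0.08. The HOX-cluster list has the highest median (2.11) and the miR-424 and miR-503 cluster the lowest (-1.59), and the 35 DLK1-DIO3 members lie left of 0 with 1 exception.

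The fit of all 36 libraries called 24 of 667 features between the depots (3.6%), 10 higher (1.5%) and 14 lower (2.1%) in omental fat, named here after their values were seen. Without the animal as a block it called 6. Besides the HOX-cluster miRNAs miR-10a, miR-10b, miR-196a and miR-615, the higher ones were miR-92b and 5 candidate loci, the locus NC_059159.1_8293 among them. miR-92b, a relative of the miR-17-92 cluster, was at 14.8 to 140 CPM in omental and 12 to 26.7 CPM in pericardial libraries (log2 fold change 1.52 in that fit). NC_059181.1_46474, an abundant locus, was at 1892 to 5914 CPM in omental and 635 to 2279 CPM in pericardial libraries (1.37 in either fit, adjusted p = 0.0408 with 36 and 0.122 with 12 libraries). The lower ones not yet described were miR-95, NC_059157.1_531, NC_059181.1_47475 and miR-302b, beside miR-338 and miR-3065. NC_059181.1_47475 was at 143 to 416 CPM in omental and 604 to 999 CPM in pericardial libraries, with no overlap. miR-95 was at 41.3 to 69.7 CPM in omental and 82.6 to 171 CPM in pericardial libraries, also with no overlap. The count of this fit fell to 3 to 15 features when 1 animal was left out: 3 without buffalo 1 or 5, 5 without 6, 11 without 3, 14 without 2 and 15 without 4. miR-10a, the locus NC_059159.1_8293 and miR-10b were called in all 6 of these fits. miR-196a lost its call in 3 of them, miR-92b in 4 and miR-95 in 6. miR-615, NC_059181.1_46474 and NC_059181.1_47475 each lost it in 5.

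Across animals, 15 features were higher in omental fat in 6 of 6 (2.72%) and 35 lower (6.35%). miR-885 was the 1 named miRNA beside miR-10a whose omental libraries all lay above the pericardial ones, at 4 to 7.84 CPM against 0.737 to 2.95 CPM (log2 fold change 1.61 ± 0.46, adjusted p = 0.156). It was named after its values were seen. Another 2 features were found in at least 5 pericardial libraries and in no omental library, and 0 the other way.

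Of the markers of muscle, blood, endothelium, stroma and epithelium 0 were called in edgeR over the 12 libraries, and miR-206 was the 1 at an unadjusted p under 0.05. Of 5 tested skeletal and cardiac muscle miRNAs 2 had higher and 3 lower values in omental fat, and the list summed to 55.8 to 456 CPM in omental and 91.6 to 327 CPM in pericardial libraries. miR-206, a miRNA of skeletal muscle, was at 5.28 to 74.5 CPM in omental and 23.4 to 196 CPM in pericardial libraries (-1.61 ± 0.50, unadjusted p = 0.00858). DESeq2 on the same libraries called miR-206. miR-1, found in skeletal and heart muscle, was at 0.73 ± 0.73, and the heart miRNA miR-208a had no read in 10 of 12 libraries. The erythroid list had a median of 0.00 and the 2 arms of the endothelial miR-126 were at 0.42 and 0.04. In the leukocyte list 5 of 8 members had higher values, beside 245 of all 551 features, with a median of 0.21 and 0 at an unadjusted p under 0.05. That list summed to 4201 to 55541 CPM in omental and 3901 to 11953 CPM in pericardial libraries. Smooth muscle and stroma miRNAs had 5 of 7 lower values (median -0.60), beside 306 of all 551 features. The epithelial list had 5 of 6 lower (median -1.16), with sums of 8.18 to 595 CPM in omental and 6.55 to 558 CPM in pericardial libraries. The animals did not share that direction. miR-200a (-1.54 ± 1.73), miR-200b (-1.71 ± 1.83), miR-429 (-1.29 ± 1.89) and miR-141 (-0.12 ± 0.64) were each higher in omental fat in 3 of 6 animals. With RLE factors the median of all features moved from -0.08 to 0.05, so a list median of that size has no set direction. The part of such cells in the differences above was not tested.

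Among miRNAs tied to fat cells, 0 were called in edgeR over the 12 libraries. DESeq2 on the same libraries called miR-335, miR-31 and miR-34a. miR-335, in the pro-adipogenic list, was at 1.01 to 5.30 CPM in omental and 4.01 to 18.9 CPM in pericardial libraries (-1.96 ± 0.54, unadjusted p = 0.00378), and the 17 tested members of that list had a median of -0.05. In the anti-adipogenic list 11 of 15 had higher values, beside 245 of all 551 features, with a median of 0.27. Higher at an unadjusted p under 0.05 were 3 of them, beside 3.99% of all features: miR-31 (1.77 ± 0.52), miR-125a (0.93 ± 0.32) and miR-224 (0.85 ± 0.31). miR-31 was at 22.7 to 85.9 CPM in omental and 4.76 to 37.0 CPM in pericardial libraries. The brown and beige fat list had 12 of 16 lower values, beside 306 of all 551 features, and a median of -0.20. Its member with the smallest p was miR-365-3p (-1.24 ± 0.46, lower in 6 of 6 animals). The other arm of that precursor, miR-365-5p, had a higher value in omental fat (0.50 ± 0.77). miR-34a, a target of p53, was at 49.2 to 329 CPM in omental and 257 to 998 CPM in pericardial libraries (-1.44 ± 0.42, unadjusted p = 0.00538). The let-7 (median -0.06), miR-30 (-0.23), miR-29 (-0.27), miR-17-92 (0.22), miR-23, miR-27 and miR-24 (0.07), miR-2284 and miR-2285 (-0.25) and kidney and gut (0.10) lists lay near the median of all features, and the 1 tested member of the liver and pancreas list, miR-375, was at -0.27 ± 1.33.

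The 5 most abundant miRNAs did not pass between the depots. let-7c averaged 50830 ± 13204 CPM in omental fat and 62320 ± 20078 CPM in pericardial fat (log2 fold change -0.27 ± 0.32), and let-7f 49971 ± 18463 CPM and 44891 ± 10299 CPM (0.10 ± 0.27). miR-451, carried by red blood cells, was at -0.19 ± 0.39, a sign that turned when single animals were left out. miR-26a (1.06 ± 0.85) and miR-26c (-1.96 ± 1.30) traded places between libraries. miR-26a took 90.2% to 97.3% of their summed counts in omental fat of buffaloes 1, 2, 3 and 5 and 8.41% and 17.8% in those of 4 and 6. In pericardial fat it took 92.0% and 97.2% in buffaloes 1 and 6, and 10.2% to 16.6% in the other 4. Their sum differed by -0.02 ± 0.23, at 110550 ± 31381 CPM in omental fat and 108188 ± 14764 CPM in pericardial fat. The omental libraries with a low share both carry the letter A, while in pericardial fat 2 of 4 do.

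Values were spread more widely over the omental than over the pericardial libraries. The SD of log2 CPM was larger in omental fat for 440 of 551 features and in pericardial fat for 111, with medians of 0.959 and 0.612. The median correlation of libraries was 0.923 within omental fat, 0.950 within pericardial fat and 0.931 between them, over the same features. Some immune and epithelial miRNAs, picked here after their values were seen, were among the widest. Others of their lists were narrower. miR-342 was at 612 to 1680 CPM in omental and 345 to 996 CPM in pericardial libraries. miR-200c was at 2.44 to 19.0 CPM in omental and 2.95 to 17.7 CPM in pericardial libraries. miR-200a, which helps keep cells epithelial, was at 385, 217 and 51.4 CPM in omental fat of buffaloes 2, 4 and 6 and at 4.60, 1.68 and 2.53 CPM in those of 1, 3 and 5. In pericardial fat it was at 59.2 to 356 CPM in 5 libraries and at 1.72 CPM in that of buffalo 1. The libraries with the letter A (omental 4 and 6, pericardial 2 and 5) were all among the high ones. So were omental fat of buffalo 2 and pericardial fat of buffaloes 3, 4 and 6, with the letter B. The part of the letter was not tested. miR-142-5p, a miRNA of blood cells, was at 94.8, 27.5 and 90.3 CPM in omental fat of buffaloes 2, 4 and 6, and at 0.881, 4.16 and 0.759 CPM in those of 1, 3 and 5, against 3.20 to 21.7 CPM in pericardial libraries. miR-150, of lymphocytes, reached 49765 CPM in omental fat of buffalo 6, against 8005 CPM at most in pericardial fat. No test compared the spreads.

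**Figure D5:**
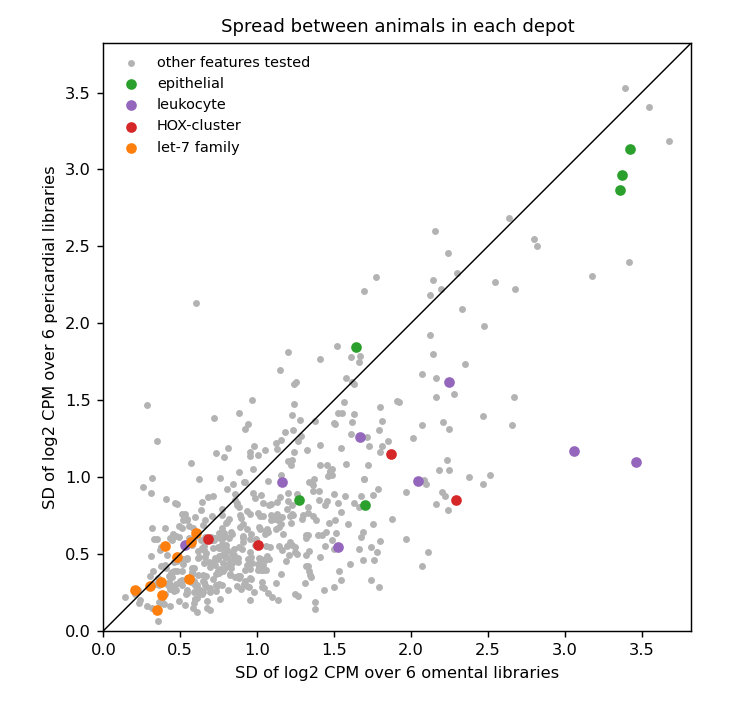
SD of log2 CPM over the 6 omental (x axis) against the 6 pericardial libraries (y axis) for the 551 features, with the line of equal spread. Of these, 440 lie below the line. Some leukocyte members (purple), such as miR-142-5p, are far to the right, while let-7 members (orange) are close to the origin.

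Against the other 4 depots, the epithelial miRNAs miR-200a, miR-200b and miR-429 had values of 3.44, 3.79 and 2.69 in omental fat, none called. In pericardial fat 3 of the 6 epithelial miRNAs were higher, beside 9% of all features: miR-200a (4.79 ± 0.90), miR-200b (5.23 ± 0.99) and miR-429 (3.72 ± 0.88), of which miR-429 was not called without buffalo 5 (3.29). Between the 2 depots none of the 3 passed. miR-200a, miR-200b and miR-429 moved together across animals, so they are not independent of each other. Their omental minus pericardial log2 differences were -7.60, -7.84 and -8.60 in buffalo 3 and -5.92, -4.93 and -4.91 in buffalo 5. miR-449a, of ciliated epithelia, was higher than in the 4 depots in both, by 1.94 in omental and 1.85 ± 0.42 in pericardial fat. The rise in omental fat was not called without buffalo 2 or without buffalo 4, and its lowest value was 0.97. The remaining features higher in omental fat against the 4 depots were miR-218 (1.86), called with any 1 animal left out, and miR-18b (1.49), not called without buffalo 2, 4 or 6, and among those lower was miR-23a, by -1.46 in omental and -1.28 ± 0.31 in pericardial fat.

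Candidate loci without a miRNA name took 23.9% ± 5.73 of counts in omental and 23.4% ± 3.55 in pericardial libraries (SD, n = 6 each). The difference averaged 0.47 percentage points, and omental fat was higher in 2 of 6 animals. An exact two-sided sign-flip permutation test gave p = 0.906, where 0.0312 is the smallest p that 6 pairs allow.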

How the data were processed

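Small RNA libraries of 36 adipose samples were sequenced, 6 depots of 6 buffaloes. Per the labels' protocols, the RNeasy Lipid Tissue Mini Kit served for extraction and the TruSeq RNA LT kit v2 for library construction. The authors deposited a table of unnormalized counts, 1 column per library, and RPM values, which equal the deposited count over the library total. For alignment, miRNA calling and genome build, tools are not given in the sources used, and the submitters' processing notes list DESeq2 1.24.0 without a role. A nameless line with 0 counts was left out, and no column of another sample was present. No coordinates or sequences of the features were used here.

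Counts of the 12 omental and pericardial libraries were tested in R 4.3.3 with edgeR 4.0.16 (estimateDisp, robust glmQLFit, glmQLFTest), TMM factors (0.841 to 1.13), filterByExpr with a minimum count of 10, and the animal as a block, which left 5 residual degrees of freedom at a biological coefficient of variation of 0.607. Tests were two-sided, adjustment was by Benjamini and Hochberg over all features tested, and 0.05 was the threshold for a call. The SE is the log2 fold change divided by the square root of its F statistic. Omental and pericardial fat were each compared with the mean of the remaining 4 depots in a fit of all 36 libraries with the animal as a block (667 features, 25 residual degrees of freedom). Log2 CPM used a prior count of 2. The share of counts in candidate loci was tested by an exact sign-flip permutation test over 64 sign patterns. Scripts were tested on simulated counts.

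The animal pairs the libraries, since the same 6 animals gave both depots. After depot means were subtracted, the mean correlation was 0.239 between the libraries of 1 animal (-0.04 to 0.53, over 0.1 in 4 of 6) and -0.05 between animals. For 2 of 6 omental libraries the pericardial library with the highest correlation was that of the same animal. No library repeated another (smallest chi-square per degree of freedom 826). Intervals and p-values cover the spread between these 6 animals.

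Features were named by a rule: those called that reached 10 CPM and went one way in 5 or 6 animals, up to 15 in each direction, filled up to 5 in each direction by the smallest p and given as not called; the 5 most abundant miRNAs; the tested HOX-cluster members; and called members of 22 lists. Others were named from the lists, or after their values were seen. The comparison, its members and the lists were chosen with earlier results of these data known. Alternatives were RLE factors, library totals, a mean of at least 10 CPM or no filter, no replicate block, the letter in the library name as a term, letter B alone, all 36 libraries, each animal left out, DESeq2 1.42.0, limma 3.58.1 on log2(RPM + 1) and log2(RPM + 0.1) of the deposited RPM values, and the most abundant arm of each precursor. After the data were seen, each animal was left out of the 36-library fit, miR-26a and miR-26c were summed, and library totals were used against the other 4 depots.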

Additional observations from a re-analysis of the deposited data

Results flagged for a closer look

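Omental fat of buffalo 2 stood apart in 1 measure among the 34 groups of 6 libraries examined for a far sample: 35.1% of its counts fell in candidate loci without a miRNA name, against 19.7% to 24.2% in the other 5 omental libraries. Its gap to the nearest library was 0.709 of the range of the group, above the 95% critical value of Dixon's test for 6 samples. Chance alone exceeds that value in about 1 of 20 groups. Without that animal the difference in this share between omental and pericardial fat was -2.48 percentage points, in place of 0.47. Buffalo 2 also had the smallest difference between depots in miR-10a, 1.41 on the log2 scale, and in miR-10b, 0.31. It had the largest in miR-196a, 4.92, and in miR-196b, 3.48. Without buffalo 2 the fit of all 36 libraries gave 2.97 for miR-10a and 1.95 for miR-10b, in place of 2.69 and 1.63. For miR-196a it gave 1.98 in place of 2.93, and the call was lost (edgeR, adjusted p = 0.088). Whether the share in candidate loci had a part in these differences was not tested.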

How the results depend on the processing

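The count of features called between omental and pericardial fat was 2 with RLE factors, with library totals and without the replicate block, and 2 to 3 with 1 animal left out. It was 12 with no filter, 7 at a mean of at least 10 CPM, 4 with the library letter as a covariate, 0 in letter B alone with no replicate block (miR-10a 3.17 and NC_059159.1_8293 2.87, not called), 6 with all 36 libraries and no replicate block, 24 with all 36 and the block (3 without animal 1 or 5, 5 without 6, 11 without 3, 14 without 2 and 15 without 4), 36 in DESeq2, 7 and 6 in limma with pseudocounts of 1 and 0.1, and 6 with miR-26a and miR-26c summed. Against the other 4 depots, omental fat had 19 without the replicate block and 23 with library totals, in place of 11, and 5 to 15 with 1 animal left out. Pericardial fat had 60 to 98 over its alternatives, beside 86; how many were shared was not counted. The block changed no call of a feature named by the rule in the 12 libraries. The difference in the share of candidate loci turned to -2.45 percentage points without the 10 most abundant features and lay between -2.48 and 1.95 with 1 animal left out. miR-451 turned to 0.0125 in letter B alone, and lay between -0.50 and 0.23 with 1 animal left out of 12 libraries and between -0.39 and 0.264 of 36, with 0.0158 without animal 6. The cause of these shifts was not tested. Of the alternative fits of features named by the rule, 315 kept the direction and the side of the threshold, and 61 passed the threshold where the 12-library fit did not. With the most abundant arm of each precursor alone, the median of the miR-23, miR-27 and miR-24 list went to -0.04 in place of 0.07, and the other list medians kept their sign. Levels below 1 CPM rest on few counts.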
